A study of Mus musculus with 16 samples.

Results

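The BCL2 family decides whether the outer mitochondrial membrane of a cell stays closed or is opened to start apoptosis. Survival proteins (MCL1, BCL-XL, BCL2, A1) hold the pore formers BAX and BAK in check, and BH3-only proteins (BIM, BID, PUMA, BAD) engage the survival proteins or activate the pore formers. Neutrophils are short-lived white cells, and the balance within this family, above all the rapidly turned-over MCL1, is known to set how long they live. The genes described here are the 10 members Mcl1, Bcl2l1 (BCL-XL), Bcl2, Bcl2a1b (an A1 copy), Bax, Bak1, Bcl2l11 (BIM), Bid, Bbc3 (PUMA) and Bad, taken by name from a list, out of 49585 gene identifiers in both count tables. All 10 were found and all 10 passed the filter on low counts in every comparison.

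RNA was sequenced from bones of C57BL/6 mice aged 8 to 12 weeks, and the series describes the cells as neutrophils sorted by flow cytometry. In the P2 line, the label of the deficient group (P2KO, n = 4) gives Vav:cre with floxed PHD2, the oxygen sensor encoded by Egln1 that marks the HIF α subunits for degradation. In the P2H2 line, the label of the deficient group (P2H2KO, n = 4) gives Vav:cre with floxed PHD2 and floxed HIF2, whose α subunit is encoded by Epas1. Vav regulatory sequences drive the recombinase across blood-forming cells, so the labelled deletions are not limited to neutrophils. Each line had its own controls labelled wild type (P2WT and P2H2WT, n = 4 each), and whether these carried floxed alleles or the recombinase is not stated. How many mice each library holds is not stated either, so p-values measure the spread between these libraries, which may be technical. Library titles end in m or f, which the titles do not explain. Those with f are P2KO replicate 9, P2WT replicates 7 and 10, P2H2KO replicates 15 and 17 and P2H2WT replicate 16. The suffix is thus not spread evenly over the groups.

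Library totals were 23450746 to 28601284 counts. Neither targeted gene was lower in its deficient group in counts over the whole gene. Egln1 stood at 48.7 ± 2.2 CPM (counts scaled to a fixed library total; SD, n = 4) in P2WT and 49.5 ± 6.4 in P2KO, and at 52.2 ± 3.0 in P2H2WT and 53.2 ± 4.4 in P2H2KO. Epas1 stood at 3.56 ± 1.02 CPM in P2H2WT and 5.65 ± 2.17 in P2H2KO. In the P2 line it stood at 8.94, 8.70, 11.1 and 11.3 CPM in P2WT and at 7.58, 10.4, 6.76 and 24.4 in P2KO. The control groups thus did not overlap for Epas1 (2.55 to 4.97 CPM in P2H2WT), where 7.77% of genes did not overlap between the controls. The cause of this difference was not tested. Counts over a whole gene do not resolve a floxed exon, so these values do not check the labels. The libraries also held transcripts of other blood cells. The 10 neutrophil markers took 1.6 to 3.92% of counts and the 7 late granule genes 2.25 to 4.87%, but 11 erythroid genes (globins, Alas2 and others) took 2.45 to 5.16%. Markers of eosinophils, macrophages and monocytes, lymphocytes of the B, T and NK types, progenitors and dividing cells were detected too, with no listed gene at 0 in any library. In such bulk samples, fewer cells of a type and less RNA per cell cannot be told apart.

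Mcl1 was the most abundant member in all 16 libraries when counts were scaled by exon length (TPM, computed from the deposited counts). Its level per length was 403 ± 38.3 TPM (SD, n = 16), with a range of 354 to 493. It made up 50.1 ± 3.7% of the summed level of the 10 members, and Mcl1 and Bcl2l1 together made up 65.9 ± 1.7%. Bak1 at 130 ± 11.5 TPM and Bcl2l1 at 127 ± 28.7 TPM came next and did not differ beyond their spread, since Bak1 was above Bcl2l1 in 7 of 16 libraries. Their order also depends on the length used: with the longest transcript of each gene in place of all exons, Bcl2l1 stood at 181 TPM and Bak1 at 105.

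Bax (44.4 ± 4.35 TPM) and Bid (41.4 ± 4.09 TPM) formed the next pair, with Bax above Bid in 12 of 16 libraries. Bad followed at 23.8 ± 2.02 TPM. Bbc3 (13.6 ± 1.99 TPM) and Bcl2l11 (12.4 ± 1.30 TPM) overlapped, with Bbc3 above Bcl2l11 in 12 of 16 libraries, and they changed places with the longest transcript. Bcl2 was low at 5.70 ± 1.08 TPM, and Bcl2a1b was lowest in all 16 libraries at 2.66 ± 0.531 TPM. Bcl2a1b is only 1 of several near-identical A1 copies, with 15 to 29 counts per library against 29 to 65 with the annotated copies added. Its place therefore holds for the reads assigned to this copy, not for A1 as a whole. The ladder therefore ran from Mcl1 to Bcl2a1b with 3 pairs of neighbours that overlapped.

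**Figure D1:**
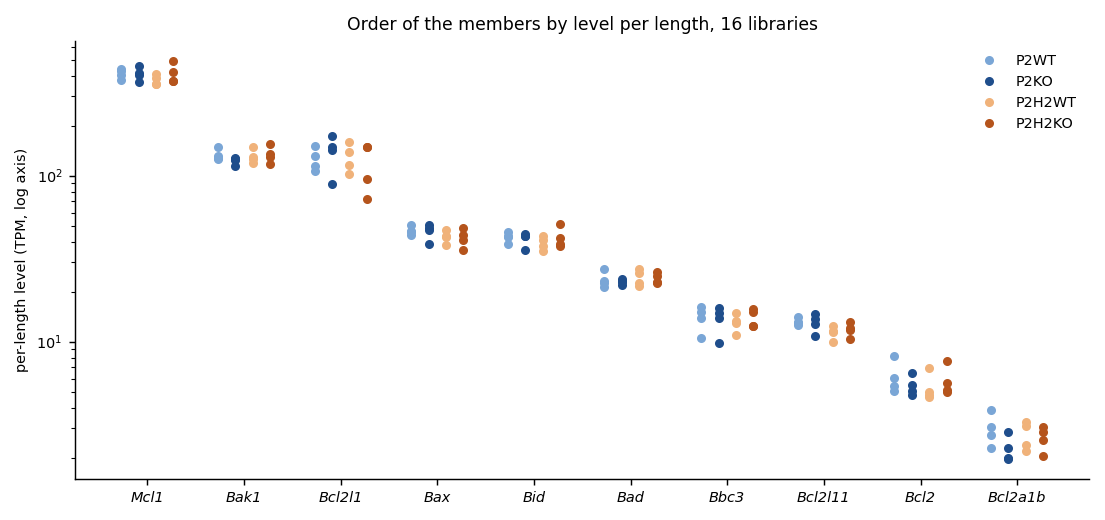
Level per length (TPM, log axis) of the 10 BCL2 family genes in each of 16 libraries, coloured by group. Mcl1 lies at 354 to 493 TPM above all other members, while Bak1 and Bcl2l1, Bax and Bid, and Bbc3 and Bcl2l11 overlap.

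The shares of the 3 functional classes were compared as a description, without a test. The 4 survival genes made up 66.6 ± 1.6% of the summed TPM of the 10 members in P2WT and 68.2 ± 1.6% in P2KO, and 66.4 ± 1.9% in P2H2WT and 66.8 ± 1.2% in P2H2KO (SD, n = 4 each). The pore formers Bax and Bak1 made up 22.0 ± 1.0% in P2WT and 20.6 ± 1.0% in P2KO, and 22.3 ± 1.3% in P2H2WT and 21.8 ± 0.88% in P2H2KO. The 4 BH3-only genes made up 11.4 ± 0.63%, 11.2 ± 0.61%, 11.3 ± 0.73% and 11.4 ± 0.40% in the same order. The mean share of the pore formers was thus lower in P2KO than in P2WT by more than 1 SD, with overlapping libraries, and the other class means differed from those of their controls by less than 1 SD of the controls. These shares are dominated by Mcl1, Bak1 and Bcl2l1 and say little about the low members.

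None of the 10 members was called in the comparison of P2KO with P2WT by edgeR's quasi-likelihood test (two-sided, Benjamini-Hochberg adjusted p under 0.05), where 0.0437% of 13734 genes were called. None was called in P2H2KO against P2H2WT, where 0.0744% of 13435 genes were called. None was called for the difference of the genotype effects between lines (0.0% of 14080 genes) or for the mean genotype effect over both lines (0.17% of 14080 genes). At an unadjusted p under 0.05 the member count was also 0 in each of these 4 comparisons, against 3.49%, 2.63%, 1.51% and 3.72% of all genes in the same order. With so few genes called in all, a count of 0 among 10 is near what the background gives. DESeq2 also called 0 members in each of the 4.

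The values of single libraries overlapped between deficient and control groups for all 10 members in both lines, where 2.25% of genes in the P2 line and 1.71% in the P2H2 line did not overlap. The median log2 fold change of the members was -0.0087 in the P2 line and 0.054 in the P2H2 line, beside 0.020 and 0.0011 for all genes tested. The difference between lines had a median of -0.12 over the members and 0.0012 over all genes. The mean effect had a median of -0.013 over the members and 0.0029 over all genes.

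**Figure D2:**
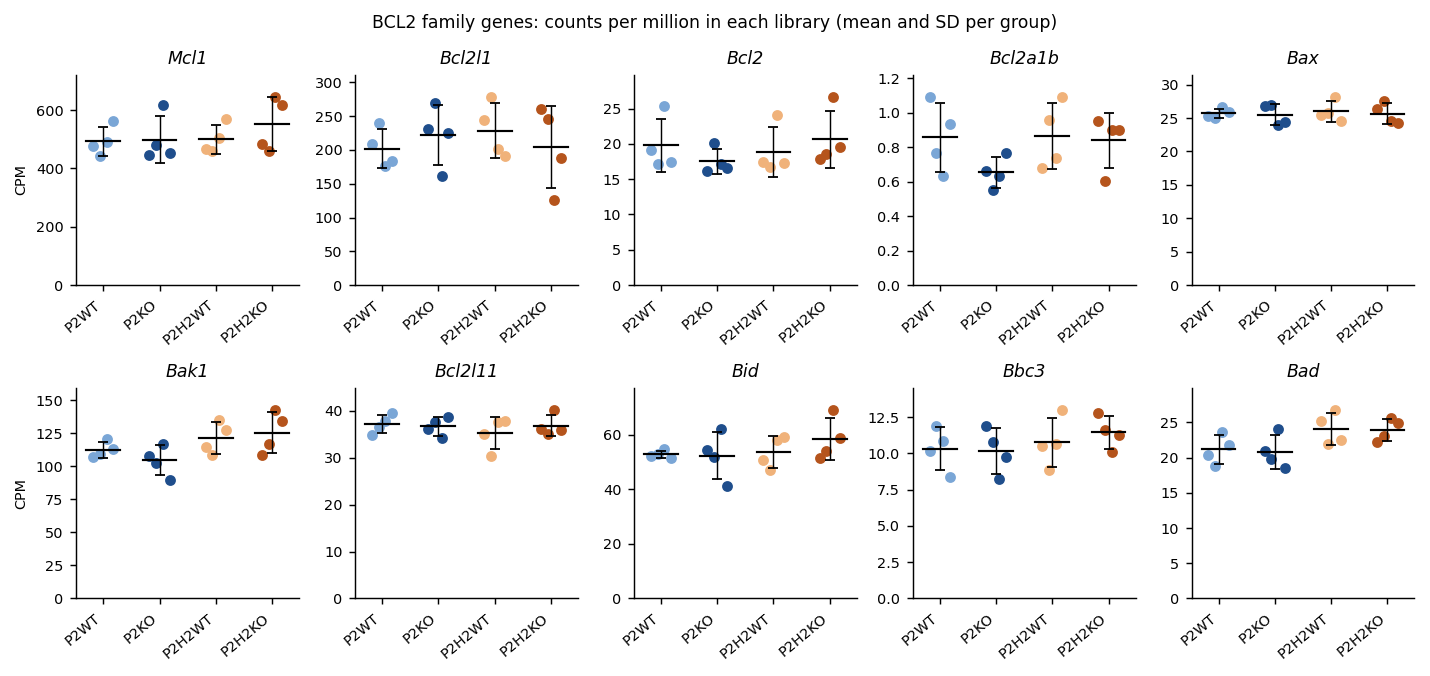
CPM of each of the 10 members in every library by group, with the group mean and SD (n = 4), each axis from 0. The deficient and control libraries of each line overlap for every member.

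Among the survival genes, Mcl1, whose protein is short-lived and restrains BAK, stood at 476, 442, 490 and 563 CPM in P2WT and at 446, 482, 617 and 452 CPM in P2KO. Within the P2H2 line Mcl1 stood at 466, 460, 503 and 570 CPM in P2H2WT and at 485, 461, 645 and 618 CPM in P2H2KO. The P2KO library at 617 and the P2H2KO libraries at 645 and 618 exceeded their controls, and the other deficient libraries lay within the control range. In P2H2KO the libraries at 645 and 618 had titles with f and those at 485 and 461 titles with m. The P2KO library at 617 had a title with m. For Mcl1 the log2 fold change was 0.030 ± 0.13 (SE) in the P2 line and 0.14 ± 0.13 in the P2H2 line. Over both lines it was 0.081, with a 95% interval of -0.12 to 0.28, or 0.921 to 1.21-fold. A rise of Mcl1 by more than 1.21-fold lay outside that interval.

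Bcl2l1, which encodes BCL-XL and is known to keep maturing red cell precursors alive, had the widest span between libraries of the 10 members. It stood at 209, 240, 176 and 184 CPM in P2WT and at 230, 269, 162 and 225 CPM in P2KO. It stood at 244, 278, 202 and 191 CPM in P2H2WT and at 260, 245, 127 and 188 CPM in P2H2KO. The span from lowest to highest library was 2.20-fold, and both ends lay in the P2H2 line. The log2 fold change of Bcl2l1 was 0.14 ± 0.15 (SE) in the P2 line and -0.16 ± 0.22 in the P2H2 line. The difference between these effects was 0.29 (95% interval -0.32 to 0.91), which did not pass the test (edgeR quasi-likelihood unadjusted p = 0.327).

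Bcl2, the founding survival gene of the family, stood at 19.2, 17.2, 25.3 and 17.4 CPM in P2WT and at 16.2, 20.1, 17.2 and 16.6 CPM in P2KO. The P2H2 line had it at 17.4, 16.7, 24.0 and 17.3 CPM in controls and at 17.9, 18.5, 26.6 and 19.5 CPM in deficient libraries. In each of the 4 groups a single library stood above the other 3. Bcl2 had log2 fold changes of -0.16 ± 0.13 (SE) in the P2 line and 0.13 ± 0.16 in the P2H2 line, with a difference of -0.30 (95% interval -0.78 to 0.17).

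Bcl2a1b belongs to the mouse A1 cluster, copies of an NF-κB-induced survival gene that lie on chromosome 9 and are close to identical. Bcl2a1b spans chr9:89199209-89207827 on the plus strand (GRCm38, GENCODE M21). The first 60 coding bases of the 3 full-length copies are shown because their likeness limits what a count of 1 copy means. Capitals mark the 6 positions in this stretch at which the 3 copies are not all alike.
Bcl2a1a: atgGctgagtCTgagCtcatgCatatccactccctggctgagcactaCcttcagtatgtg
Bcl2a1b: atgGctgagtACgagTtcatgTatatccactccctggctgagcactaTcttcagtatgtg
Bcl2a1d: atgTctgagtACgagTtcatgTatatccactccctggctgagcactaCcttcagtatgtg
Over all 519 coding bases the copies differ at 12 positions, and Bcl2a1b is 97.9% identical to Bcl2a1a and 98.8% identical to Bcl2a1d. Of the 50-base stretches of annotated Bcl2a1b transcripts, 79.2% also occur in another gene's transcripts. Reads from such stretches may have been assigned, split or dropped, and the counting rule is not given in the sources used here. A read-through model, Gm29094, shares 401 exon bases with Bcl2a1b and had 0 counts in all libraries, so the Bcl2a1b level is uncertain.

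The Bcl2a1b counts were small, 15 to 29 per library. Its CPM values were 1.09, 0.768, 0.632 and 0.937 in P2WT and 0.662, 0.552, 0.632 and 0.768 in P2KO. They were 0.680, 0.956, 0.735 and 1.09 in P2H2WT and 0.952, 0.604, 0.898 and 0.902 in P2H2KO. In the P2 line the deficient library at 0.552 CPM lay below every control, and the groups overlapped. The log2 fold change of Bcl2a1b was -0.38 ± 0.23 (SE) in the P2 line, the largest in size among the members, and -0.041 ± 0.23 in the P2H2 line. With the counts of all 4 annotated copies added (29 to 65 per library), it was -0.22 ± 0.22 and -0.17 ± 0.26, and the difference between lines shrank from -0.35 to -0.058.

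Of the pore formers, Bax varied least. It stood at 25.2, 25.1, 26.6 and 25.9 CPM in P2WT and at 26.8, 26.9, 24.0 and 24.3 CPM in P2KO. Bax was at 25.5, 25.8, 28.1 and 24.6 CPM in P2H2WT and at 26.4, 27.6, 24.5 and 24.3 CPM in P2H2KO. All 16 libraries lay within a 1.17-fold span, the narrowest of the 10 members, and the coefficient of variation was 4.89%. For Bax the log2 fold change over both lines was -0.014 (95% interval -0.11 to 0.081, or 0.926 to 1.06-fold). Exons of Bax share 192 bases with the same-strand read-through model Gm45808.

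Bak1, the pore former held by MCL1 and BCL-XL, stood at 107, 110, 121 and 114 CPM in P2WT and at 108, 103, 117 and 90.1 CPM in P2KO. The P2H2 line had it at 115, 109, 135 and 128 CPM in controls and at 108, 117, 142 and 134 CPM in deficient libraries. In the P2 line the deficient libraries at 103 and 90.1 CPM lay below all 4 controls, and in the P2H2 line the deficient libraries ran from below the lowest to above the highest control. Bak1 had log2 fold changes of -0.096 ± 0.088 (SE) in the P2 line and 0.046 ± 0.11 in the P2H2 line. Its exons overlap those of Ggnbp1 on the opposite strand, and whether strand was used in counting is not given in the sources used here.

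The 4 BH3-only genes also gave small differences. Bid, cleaved by caspase 8 to link death receptors to mitochondria, stood at 52.3, 52.9, 54.7 and 51.7 CPM in P2WT and at 54.3, 52.0, 62.1 and 41.4 CPM in P2KO. It stood at 50.9, 47.1, 58.2 and 59.3 CPM in P2H2WT and at 51.6, 54.1, 69.0 and 58.8 CPM in P2H2KO. The means of Bid in the P2 line were nearly equal (52.9 and 52.5 CPM), while the SD was 1.29 in P2WT and 8.53 in P2KO; the difference in spread was not tested. Bid had a log2 fold change over both lines of 0.052 (95% interval -0.12 to 0.22).

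Bcl2l11 encodes BIM, which rises in neutrophils deprived of cytokine signals. It ranged from 34.9 to 39.4 CPM in P2WT, 34.2 to 38.7 in P2KO, 30.4 to 37.9 in P2H2WT and 35.1 to 40.1 in P2H2KO. Its log2 fold change over both lines was 0.021 (95% interval -0.091 to 0.13), so a change of more than 1.1-fold in either direction lay outside the interval. Bbc3, the p53 target PUMA, ranged from 8.36 to 11.9 CPM in P2WT, 8.22 to 11.9 in P2KO, 8.85 to 13 in P2H2WT and 10.1 to 12.8 in P2H2KO. Its log2 fold change over both lines was 0.036 (95% interval -0.17 to 0.24).

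Bad, whose protein is held inactive by phosphorylation downstream of growth factors, ranged from 18.8 to 23.6 CPM in P2WT and from 18.5 to 24.0 in P2KO. It ranged from 21.9 to 26.7 CPM in P2H2WT and from 22.2 to 25.6 in P2H2KO. The ranges of deficient and control libraries overlapped in both lines, and the log2 fold change of Bad over both lines was -0.017 (95% interval -0.16 to 0.13). Both Bid and Bad overlap an opposite-strand gene (Bcl2l13 over 628 exon bases and Gpr137 over 524), so antisense reads could enter their counts if strand was not used.

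**Figure D3:**
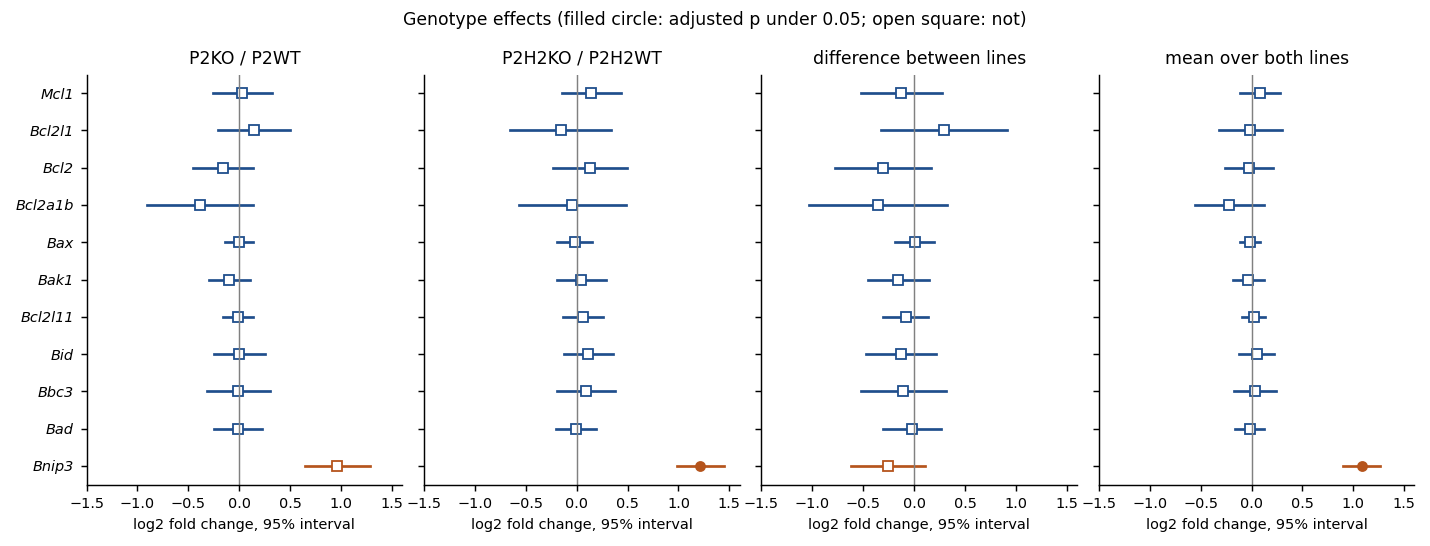
Log2 fold changes with 95% intervals from edgeR's quasi-likelihood test for the 10 members and Bnip3 in the P2 line, the P2H2 line, their difference and their mean. All member intervals include 0, and Bnip3 lies near 1 in both lines.

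Other genes of the pathway were taken from lists of 16 further family members, 29 genes of the caspase and death receptor machinery and 26 upstream survival regulators. Of the further family members, 13 were tested for the mean effect and 1 rose, with 0 falling, where 0.17% of 14080 genes were called. Of the 29 machinery genes and the 26 regulators, all tested, 0 passed the test in either direction in any of the 4 genotype comparisons. With so few genes called in all, these counts of 0 are near what the background gives. Median log2 fold changes for the mean effect were 0.045 for the further family members, 0.0019 for the machinery and 0.019 for the regulators, beside 0.0029 for all genes. In the P2 line, 3.49% of 13734 genes had an unadjusted p under 0.05. Below it were 1 higher and 1 lower gene of the 13 further family members, 0 of 29 machinery genes and 1 lower gene of 26 regulators. A single lower gene in a list is near what that share gives. The lower genes were Hif1a, the HIF1 α subunit, at -0.35 ± 0.13 (SE, edgeR unadjusted p = 0.0245) and Bmf, a BH3-only gene linked to the cytoskeleton, at -0.34 ± 0.14 (edgeR unadjusted p = 0.0418). Neither passed after adjustment by edgeR (adjusted p = 0.99999). Both genes were picked by their unadjusted p in the P2 line. Their values in the P2H2 line were -0.026 for Hif1a and -0.021 for Bmf. With the scores of the erythroid and the late granule lists (mean log2 CPM) in the fit, the P2H2 values were -0.16 for Hif1a (unadjusted p = 0.0263, edgeR adjusted p = 0.702) and -0.21 for Bmf (unadjusted p = 0.0139, edgeR adjusted p = 0.598), beside -0.30 and -0.35 in the P2 line.

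The riser was Bnip3, a BH3-domain protein that removes mitochondria by mitophagy and is a known HIF target. It stood at 7.25, 5.82, 6.13 and 7.64 CPM in P2WT and at 12.1, 11.5, 16 and 12.4 CPM in P2KO. It stood at 8.77, 6.77, 7.74 and 8.20 CPM in P2H2WT and at 16.4, 19.8, 18.5 and 18.4 CPM in P2H2KO. All 8 deficient libraries were above all 8 controls. The log2 fold change of Bnip3 was 1.21 ± 0.10 (SE; edgeR adjusted p = 0.00233) in the P2H2 line and 1.08 ± 0.086 over both lines (edgeR adjusted p = 4.39e-06), or 2.12-fold. In the P2 line alone it was 0.96 ± 0.14 and missed the threshold (edgeR adjusted p = 0.102), whereas DESeq2 gave an adjusted p of 2.98e-06. The effects in the lines did not differ by test (difference -0.26, 95% interval -0.62 to 0.10). Its close relative Bnip3l, added after its values were seen, did not pass the test, at 296.8 ± 31.6 CPM in P2WT and 304 ± 30.6 in P2KO, and at 375 ± 45.6 in P2H2WT and 353 ± 51.7 in P2H2KO (SD, n = 4).

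HIF proteins bind DNA at a core of ACGTG or GCGTG, so these letters were searched on both strands of the 300-base windows from 250 bases before to 50 after each annotated start (RefSeq, GRCm38.p6). ACGTG was in 19.6% and GCGTG in 32.4% of all 32851 windows. Matches for 3 genes with ACGTG are printed to show the letters beside a gene that rose and a pair that did not pass the test, with the searched letters in capitals, on the gene's strand.
Bnip3, chr7:138909596-138909626, minus strand: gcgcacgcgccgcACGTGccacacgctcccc
Bax, chr7:45466889-45466919, minus strand: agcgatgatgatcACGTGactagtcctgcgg
Bbc3, chr7:16310355-16310385, plus strand: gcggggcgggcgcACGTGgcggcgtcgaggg
Each of these matches is also a match on the opposite strand, since each lies in CACGTG, which reads the same on both strands. Bax had 2 CACGTG sites in its window, of which 1 is printed. GCGTG matches numbered 3 in the Bnip3 window, 3 in 1 of 2 windows of Bcl2l11, 3 and 1 in those of Bad, 4, 1 and 1 in the 3 windows of Bbc3, and 1 in that of Bcl2a1b. Mcl1, Bcl2, Bak1 and Bid had neither motif in their windows, and Bcl2l1 had 1 GCGTG match in each of 2 of its 3 windows. A match describes the letters only, and its absence says nothing about binding outside these windows.

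The lines were also set against each other within a genotype. None of the 10 members was called between P2WT and P2H2WT (0.227% of genes called) or between P2KO and P2H2KO (0.923%). At an unadjusted p under 0.05 there were 0 members in the control comparison (1414 of 14080 genes) and 2 in the deficient comparison (15.8% of genes). The 2 were Bak1 at -0.26 ± 0.099 (SE; unadjusted p = 0.0183, edgeR adjusted p = 0.232) and Bad at -0.20 ± 0.094 (unadjusted p = 0.0470, edgeR adjusted p = 0.309), both lower in P2KO. Between the controls, Bak1 was at -0.11 and Bad at -0.19 in the same direction. With the erythroid and late granule scores in the fit, these became -0.15 (edgeR unadjusted p = 0.0383, adjusted p = 0.240) and -0.24 (0.00897 and 0.149). Between the deficient groups, that fit gave Bcl2 -0.36 (edgeR unadjusted p = 0.00741, adjusted p = 0.121), Bak1 -0.20 (0.00820 and 0.126) and Bad -0.17 (0.0451 and 0.237). The unadjusted share of all genes in that fit is not given here. No member had groups without overlap, against 7.77% of genes between the controls and 6.99% between the deficient groups. Line, table and any processing that went with them cannot be told apart here.

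Several members varied with marker scores of other cell types across libraries. Each member was correlated within each line (n = 8) with the mean log2 CPM of 10 marker lists, 200 relations in all, using exact two-sided permutation tests over all pairings and Benjamini-Hochberg adjustment. The adjusted p was under 0.05 for 16 relations, 5 in the P2 line and 11 in the P2H2 line, and for 12 when lists were scored by summed CPM. By Spearman's rho it was under 0.05 for 8 relations, 1 in the P2 line and 7 in the P2H2 line. Points share the library and its scaling to a total, so a gene can fall as other transcripts take more of the counts.

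Bcl2l1 followed the erythroid score most closely. Pearson's r was 0.98 in the P2 line and 0.99 in the P2H2 line, with Spearman's rho 0.98 in both (exact permutation, adjusted p = 0.00744 for r and 0.0265 for rho in both). Without the 2 libraries farthest from the median score, r was 0.97 and 0.94. The lowest Bcl2l1 values, 162 CPM in P2KO and 127 CPM in P2H2KO, belonged to the libraries with the lowest erythroid score of their line. Bcl2l1 also followed the cell cycle score, with r of 0.94 in the P2 line and 0.95 in the P2H2 line (exact permutation, adjusted p = 0.0259 and 0.00992). By rank, rho was 0.76 in the P2 line, which did not pass (exact permutation, adjusted p = 0.223), and 0.95 in the P2H2 line (adjusted p = 0.0285). The libraries with the lowest erythroid score of their line, P2KO replicate 6 and P2H2KO replicate 15, also had its lowest cell cycle score. Relations to the erythroid and to the cell cycle score are therefore not separate results.

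Bid and Bak1 had negative r with these scores, and passed with them in the P2H2 line. Bid against the erythroid score had r of -0.97 in the P2H2 line (rho -0.95, exact permutation, adjusted p = 0.00992 for r and 0.0285 for rho) and -0.59 in the P2 line, which did not pass. Bak1 had r of -0.90 with the erythroid score in the P2H2 line (rho -0.90, exact permutation, adjusted p = 0.0119 for r and 0.0702 for rho) and -0.68 in the P2 line, which did not pass. Bak1 against the cell cycle score had r of -0.96 in the P2H2 line (rho -0.95, exact permutation, adjusted p = 0.0234 and 0.0285). Whether the lines differ in these relations was not tested.

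Mcl1 against the cell cycle score had r of -0.90 in the P2 line (rho -0.90, exact permutation, adjusted p = 0.0231 and 0.0702) and -0.91 in the P2H2 line (rho -0.83, adjusted p = 0.0283 and 0.128). Without the 2 farthest libraries these became -0.75 and -0.90. Mcl1 had r of 0.81 and 0.93 with the neutrophil score, which did not pass the adjusted threshold, and in the P2 line r was -0.17 without the 2 farthest libraries, so there the relation rests on those samples. Bad against the erythroid score had r of -0.90 in the P2 line (rho -0.88, exact permutation, adjusted p = 0.0294 and 0.0966), and -0.73 without the 2 farthest, and it passed with the cell cycle score as well (-0.90). In the P2H2 line Bad had r of -0.55 and -0.67 with these scores, which did not pass.

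Mcl1 against the erythroid score passed by r in the P2H2 line (r of -0.86, exact permutation, adjusted p = 0.0259) but not by rho (adjusted p = 0.0702), and in the P2 line r was -0.84, which did not pass. Against the T and NK cell score Mcl1 had r of -0.95 in the P2H2 line (rho -0.95, exact permutation, adjusted p = 0.0294 and 0.0285) and -0.19 in the P2 line. P2H2KO replicates 15 and 17 and P2H2WT replicate 18 were lowest in that line on this score and on the erythroid score. The Mcl1 relations to these scores are therefore not separate results. T and NK genes held only 0.00872 to 0.0124% of counts in that line. Bid passed by r with the cell cycle and B cell scores in the P2H2 line (-0.91 each, exact permutation, adjusted p = 0.0294 and 0.0481) but not by rho (adjusted p = 0.161 and 0.128), and stood at -0.63 and -0.68 in the P2 line. Without the 2 farthest libraries, r between Bid and the B cell score was -0.61 in the P2H2 line. Bcl2l11 against the B cell score had r of -0.91 in the P2H2 line (rho -1, exact permutation, adjusted p = 0.0294 and 0.00992) and 0.11 in the P2 line.

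**Figure D4:**
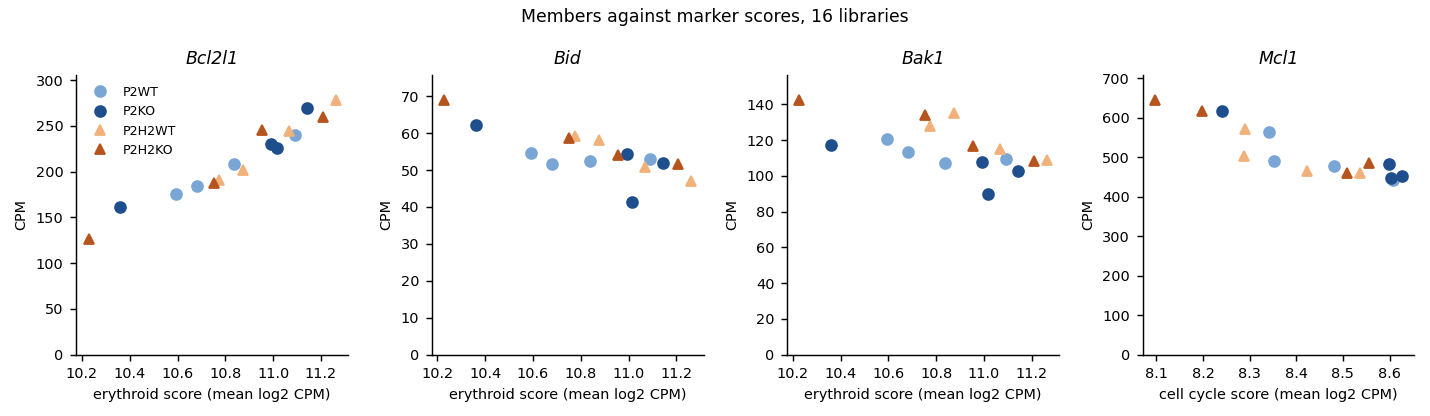
CPM of Bcl2l1, Bid and Bak1 against the erythroid score and of Mcl1 against the cell cycle score (mean log2 CPM of the list), 1 point per library, circles for the P2 line and triangles for the P2H2 line. Bcl2l1 rises with the erythroid score in both lines (r of 0.98 and 0.99) across deficient and control libraries.

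**Figure D5:**
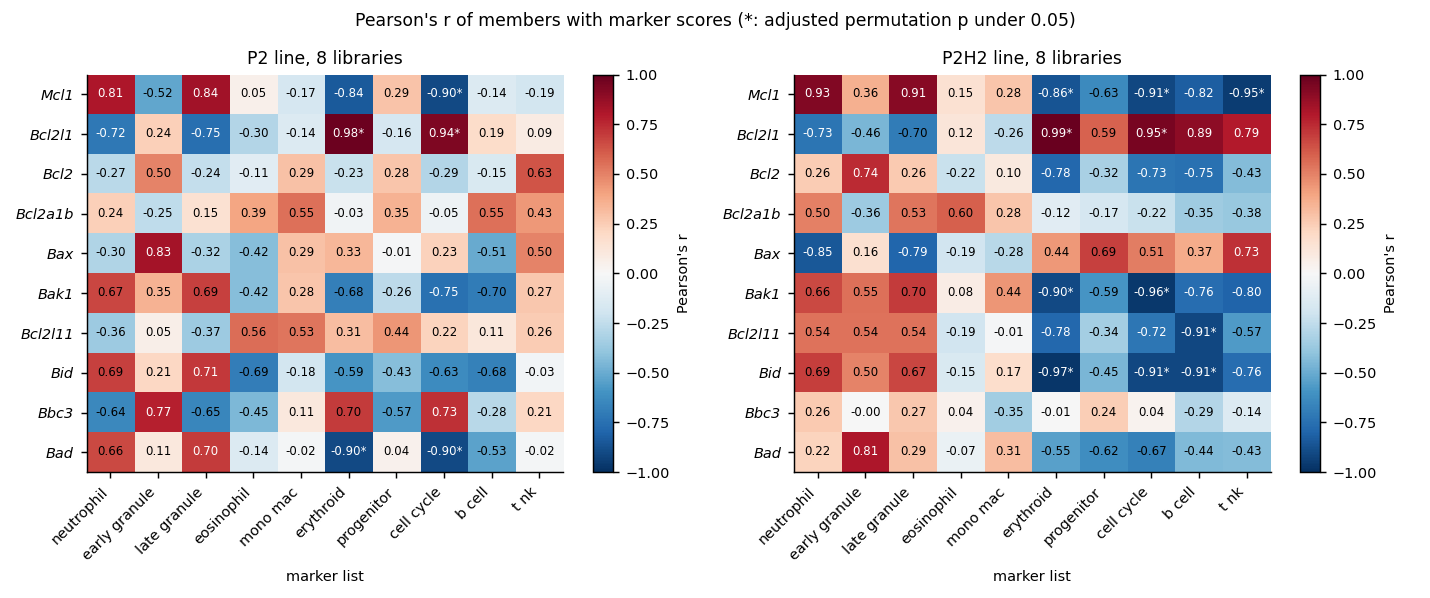
Pearson's r between each member (rows) and each marker score (columns) over the 8 libraries of the P2 line and of the P2H2 line, with an asterisk at an adjusted permutation p under 0.05. Bcl2l1 has positive r, and Mcl1 and Bak1 negative r, with the erythroid and cell cycle scores in both lines.

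The erythroid scores of the groups overlapped: they were 10.8 ± 0.22 in P2WT and 10.9 ± 0.35 in P2KO, and 11 ± 0.22 in P2H2WT and 10.8 ± 0.42 in P2H2KO (SD, n = 4, mean log2 CPM). The signs of the Bcl2l1 differences in each line were those of the erythroid score. This is not a separate result, since Bcl2l1 followed that score closely over the same libraries. When the fit took in the scores of the erythroid and the late granule lists, Bcl2l1 had a log2 fold change of 0.068 ± 0.044 (SE) in the P2 line, against 0.14 ± 0.15 without them, and of 0.039 ± 0.053 in the P2H2 line, against -0.16 ± 0.22. Its standard error for the mean effect fell 3.96 times, and the value was 0.031 ± 0.037. The smaller error comes with the same relation, and its cause was not tested. With both scores in the fit, the ratio of the standard errors without and with them was also 2.50 for Mcl1 and 1.69 for Bak1, and 0.927 for Bcl2a1b. The same fit gave Mcl1 a mean effect of 0.056 ± 0.037 and left all 10 members uncalled.

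Mean scores of monocyte and macrophage genes were lower in both deficient groups, at 6.70 ± 0.10 in P2KO against 7.02 ± 0.09 in P2WT and 6.70 ± 0.19 in P2H2KO against 6.97 ± 0.08 in P2H2WT (SD, n = 4, scores not tested). In the P2 line the scores did not overlap, with at most 6.78 in P2KO and at least 6.91 in P2WT. In the P2H2 line the libraries overlapped, with 6.89 in P2H2KO replicate 17 and 6.86 in P2H2WT replicate 13. By share of counts, P2H2KO (0.198 to 0.313%) spanned the range of P2H2WT (0.239 to 0.303%). T and NK cell scores were 2.47 ± 0.21 in P2KO and 2.86 ± 0.11 in P2WT, and 2.72 ± 0.31 in P2H2KO and 2.86 ± 0.15 in P2H2WT. For the mean effect, 257 of 14080 genes were lower at an unadjusted p under 0.05 by edgeR. Among them were 9 of 14 monocyte and macrophage genes and 5 of 10 T and NK genes, with 0 called in either list. Summed over each list in all libraries, these genes held 0.198 to 0.313% and 0.00729 to 0.0127% of counts. Their part in the Bnip3 result was not tested.

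Members also moved together across libraries once group means were removed (16 libraries, Pearson's r on log2 CPM, a description without test). Bak1 and Bid were the most alike pair at 0.93, and Bak1 and Bad stood at 0.78. Mcl1 and Bcl2l1, both survival genes, ran in opposite directions at -0.85, and Bcl2l1 and Bak1 stood at -0.81. With the erythroid score, Bcl2l1 had positive r and Mcl1 and Bak1 negative r in both lines. In these bulk libraries, cell content, scaling to a total and change within a cell type cannot be told apart. In single libraries the ratio of Mcl1 to Bcl2l1 per length ranged from 2.22 to 6.83, while Bak1 to Bax ranged from 2.42 to 3.80.

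Among 9540 genes with a mean of at least 5 CPM, the patterns most like Bcl2l1 were those of Ube2o at 0.994, Cdr2 at 0.992 and Fam213a at 0.991. For Mcl1 they were Itgal, Dennd1b and Gnaq at 0.968 each. For Bak1 they were Pgam1 at 0.983, Adap1 at 0.981 and Ugt1a7c at 0.978, and for Bid Card9 at 0.959, Casp1 at 0.956 and Pitpna at 0.955. The patterns most like Bcl2 were Rcn2 at 0.941, Qser1 at 0.938 and Cd34 at 0.933. Bad was most like Lman2 at 0.921, Bcl2l11 like Cyp27a1 at 0.883, Bax like Chchd4 at 0.828 and Bbc3 like Cars2 at 0.825. Bcl2a1b, with its few counts, reached 0.743 with Crebl2.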

How the data were processed

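The authors deposited 2 tables of raw counts per Ensembl gene, 8 libraries each, with no normalization, per the file headers. HTSeq and mm10 are named in the submitters' processing notes; aligner, annotation and strand setting are not given in the sources used here. Symbols matched 49326 of 49585 identifiers (GENCODE M21), and unnamed ones held 0.00714% of counts. The members and gene lists were chosen with earlier results of these data known. In R 4.3.3, edgeR 4.0.16 was run with filterByExpr, TMM, robust glmQLFit and glmQLFTest, on 8 libraries for each line and on all 16 for the other comparisons. CPM used TMM-scaled library sizes of all 16, list scores the mean log2 CPM (prior count 2), and TPM the summed exon length; all were computed here. Named genes were the members, Egln1, Epas1, list genes with an unadjusted p under 0.05 in a genotype comparison, and the 3 genes most like each member by r. Alternatives were RLE and upper-quartile factors, other filters, DESeq2 1.42.0, covariates and leaving out each library. The fit was tested on simulated data.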

Additional observations from a re-analysis of the deposited data

Results flagged for a closer look

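In 2 of the 40 sets of 4 libraries (10 members in 4 groups), 1 library stood far from the other 3 by Dixon's criterion, and chance alone flags about 1 set in 20. Bcl2 was 24.0 CPM in P2H2WT replicate 16, while the other 3 libraries of that group lay between 16.7 and 17.4 CPM. Without that library the log2 fold change of Bcl2 in the P2H2 line was 0.27 in place of 0.13. Bcl2a1b was 0.604 CPM (15 counts) in P2H2KO replicate 12, while the other 3 lay between 0.898 and 0.952 CPM. Without that library the log2 fold change of Bcl2a1b in the P2H2 line was 0.088 in place of -0.041. Neither gene passed the test with or without these libraries.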

How the results depend on the processing

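No member was called under any alternative or with any library left out. Among the members followed singly, the smallest adjusted p in any fit was 0.0903 (Bak1 between the deficient groups without P2KO replicate 6). Between the controls and between the deficient groups, only Bak1, Bad, Bcl2 and Bcl2l1 were followed singly across all fits. There the other members were followed singly only in the fit with the erythroid and late granule scores. Small effects changed sign, none of them called. With at least 10 counts in every library, log2 fold changes that changed sign were 0.00077 for Bax in the P2 line. With the m or f suffix of the titles as a covariate, log2 fold changes that changed sign were 0.018 for Bcl2l11 in the P2 line, and -0.022 for Bak1 and -0.0057 for Egln1 in the P2H2 line, and 0.040 for Bad for the difference between lines. With the scores of the erythroid and the late granule lists in the fit, log2 fold changes that changed sign were 0.021 for Bid and 0.023 for Bad in the P2 line, and -0.013 for Bcl2, 0.039 for Bcl2l1, -0.047 for Bak1 and -0.032 for Egln1 in the P2H2 line, and 0.020 for Mcl1, -0.018 for Bax and 0.074 for Bad for the difference between lines, and 0.031 for Bcl2l1 for the mean effect, and -0.21 for Bcl2, 0.023 for Bcl2l1 and 0.12 for Bcl2a1b between the controls. With 1 library left out at a time, those that changed sign ranged as follows. In the P2 line they ran from -0.092 to 0.093 for Bid, -0.090 to 0.040 for Bad, -0.088 to 0.11 for Mcl1, -0.042 to 0.024 for Bcl2l11, -0.027 to 0.029 for Bax, -0.094 to 0.082 for Bbc3, -0.050 to 0.095 for Egln1 and -0.27 to 0.50 for Epas1. In the P2H2 line they ran from -0.053 to 0.047 for Bad, -0.15 to 0.055 for Hif1a, -0.18 to 0.091 for Bmf, -0.14 to 0.088 for Bcl2a1b, -0.015 to 0.27 for Bcl2, -0.29 to 0.018 for Bcl2l1, -0.053 to 0.025 for Bax, -0.018 to 0.11 for Bak1, -0.023 to 0.061 for Egln1 and -0.0048 to 0.097 for Bcl2l11. For the difference between lines they ran from -0.037 to 0.035 for Bax and -0.094 to 0.034 for Bad. For the mean effect they ran from -0.0098 to 0.086 for Bbc3, -0.080 to 0.075 for Bcl2l1, -0.030 to 0.0056 for Bax, -0.064 to 0.0079 for Bak1, -0.055 to 0.016 for Bad, -0.095 to 0.050 for Bcl2 and -0.012 to 0.039 for Bcl2l11. Between the controls they ran from -0.088 to 0.21 for Bcl2. Between the deficient groups they ran from -0.060 to 0.25 for Bcl2l1. The cause of these changes was not tested.

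The number of genes called over the whole table moved more. DESeq2 called 23 genes for the P2 line, 42 for the P2H2 line, 65 for the mean effect, 291 between the controls and 422 between the deficient groups. With the 2 scores in the fit the counts were 24, 23, 74, 21 and 1 in the same order. The fit of all 16 libraries gave 10 in the P2 line. Between the controls, no filter gave 9, at least 10 counts in every library 0 and the suffix covariate 124, and between the deficient groups the latter 2 gave 56 and 210. With 1 library left out, counts ran from 4 to 6 in the P2 line, 6 (without P2H2WT replicate 13) to 9 in the P2H2 line and 15 (without P2WT replicate 4) to 30 for the mean effect. Between the controls they ran from 0 (without P2H2WT replicate 13 or P2WT replicate 3, 4 or 7) to 182 (without P2KO replicate 9), with 1 without P2H2WT replicate 16 or P2WT replicate 10, 12 without P2KO replicate 5, 13 without P2H2KO replicate 12 and 15 without P2H2WT replicate 14. Between the deficient groups they ran from 38 (without P2H2KO replicate 15) to 179 (without P2KO replicate 6), with 39, 49 and 63 without P2H2KO replicates 11, 12 and 17, and 68 and 44 without P2KO replicates 5 and 9. The count for the difference between lines was 0 in these fits; the cause was not tested. Bnip3 in the P2 line was called in 4 of 8 alternatives, with no filter (edgeR adjusted p = 0.00634), DESeq2 (2.98e-06), the 2 scores in the fit (0.00471) and all 16 libraries (0.00248), and in 0 of 8 fits with a library left out (0.0651 to 0.396). No paired analysis was made because the labels give no pairing of libraries. Replicate numbers are those of the titles, and none is shared between groups. Depth limits Bcl2a1b most, at 15 to 29 counts per library.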
